A study of Mus musculus with 27 samples.

Results

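The comparison described here is that of the longest ischemia time of the series with sham surgery. It takes 6 of the 27 sequenced mouse kidneys, the 3 labelled uIRIx30min-24h and the 3 labelled Sham-24h, and they were chosen by these labels alone. In the uIRIx model (unilateral ischemia reperfusion injury with removal of the opposite kidney) the C57BL/6 mice lost their right kidney. The paper lists 0 min among the ischemia times of this model but does not state separately whether the sham animals lost theirs. If they did not, the loss of a kidney cannot be told apart from ischemia in this comparison. The left renal pedicle was clamped for 30 min at 37 °C in the 30 min group and was not clamped in the 0 min (sham) group, and the left kidney was taken after 24 h of reperfusion and its RNA sequenced. The labels give neither the age nor the sex of the mice, and each kidney is from a different mouse. The 3 kidneys of the 28 min group, the next shorter ischemia time, are used for one further comparison.

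Clamping the renal pedicle stops blood flow, and reopening it brings oxygen back to cells that have run out of ATP. Proximal tubule cells of the cortex and outer stripe bear the heaviest damage because they work aerobically and do most of the reabsorption of glucose, amino acids, phosphate and filtered protein. Surviving tubule cells lose their brush border and their transporters, switch on injury genes such as Havcr1 (KIM-1) and Lcn2 (NGAL), and may later divide to replace lost cells. The thick ascending limb, which reabsorbs salt in the outer medulla, is also sensitive to low oxygen, while interferon-stimulated genes and antigen presentation genes report the immune tone of the tissue.

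Expression is given as FPKM (fragments mapped to a gene, scaled by its length and by the size of the library), which is a level comparable between genes. Differences are log2 fold changes of FPKM + 1 from limma, with Benjamini-Hochberg adjusted p-values over 18188 genes. A gene was called differentially expressed (DEG) when its log2 fold change exceeded 1 in either direction at an adjusted p below 0.05, and "rose" and "fell" are used of DEGs. Because 1 FPKM is added, the fold changes of genes at low levels are understated. The 6 kidneys had 16498 to 16863 genes above 0 FPKM, and the libraries of the 0, 28 and 30 min groups had relative depths between the median library of the series and 105.9% of it, while the absolute depth is unknown. Replicate kidneys correlated at 0.9916 to 0.9963 in the 0 min group and 0.9882 to 0.9937 in the 30 min group (Pearson's r across genes of 1 library pair, as a description). Transcripts of the Y chromosome, which male mice carry, were found in all 6 kidneys. Eif2s3y was at 24.9 to 30.3 FPKM and Ddx3y at 9.4 to 13.0 FPKM.

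Some kidneys stood apart from the others of their group. Sham kidney 1 had a low summed level of the interferon response list, 3304 FPKM against 8421 and 7532 FPKM in sham kidneys 2 and 3, and the highest summed hemoglobin and red cell level in its group (657 FPKM against 215 and 134). Sham kidney 3 had the highest injury gene levels among the sham kidneys. In the 30 min group, kidney 3 had a summed thick ascending limb level of 2636 FPKM against 726 and 724 FPKM in kidneys 1 and 2, together with the highest levels of collecting duct, smooth muscle and Lcn2 transcripts.

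At 30 min, 934 genes rose (5.14% of the 18188 tested) and 1016 fell (5.59%). Leaving out Gm-numbered, Rik and pseudogene symbols, the 10 largest increases held 5 injury markers and the AP-1 gene Fosl1, and the 10 largest decreases held 4 interferon-inducible GTPases (Gbp6, Tgtp1, Iigp1 and Igtp), the transporter Slc7a13, the brush border enzyme Mep1b and Egf. Of the DEGs, 13 rose and 33 fell by more than 4 on the log2 scale (16-fold), 186 rose and 259 fell by 2 to 4, and the other 735 and 724 changed by 1 to 2. The 3 kidneys of the 30 min group all lay above the 3 sham kidneys for 930 of the higher DEGs, and all lay below them for 983 of the lower DEGs. Over all genes tested, called or not, this was so for 33.3% (above) and 21.2% (below), and 9511 genes (52.3%) had an adjusted p below 0.05. The split between higher and lower DEGs moved with scaling. Without quantile normalization 1086 genes rose and 886 fell, and with FPKM rescaled to a constant sum 1333 rose and 1044 fell, where the median of all genes shifted by at most 0.051.

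**Figure D1:**
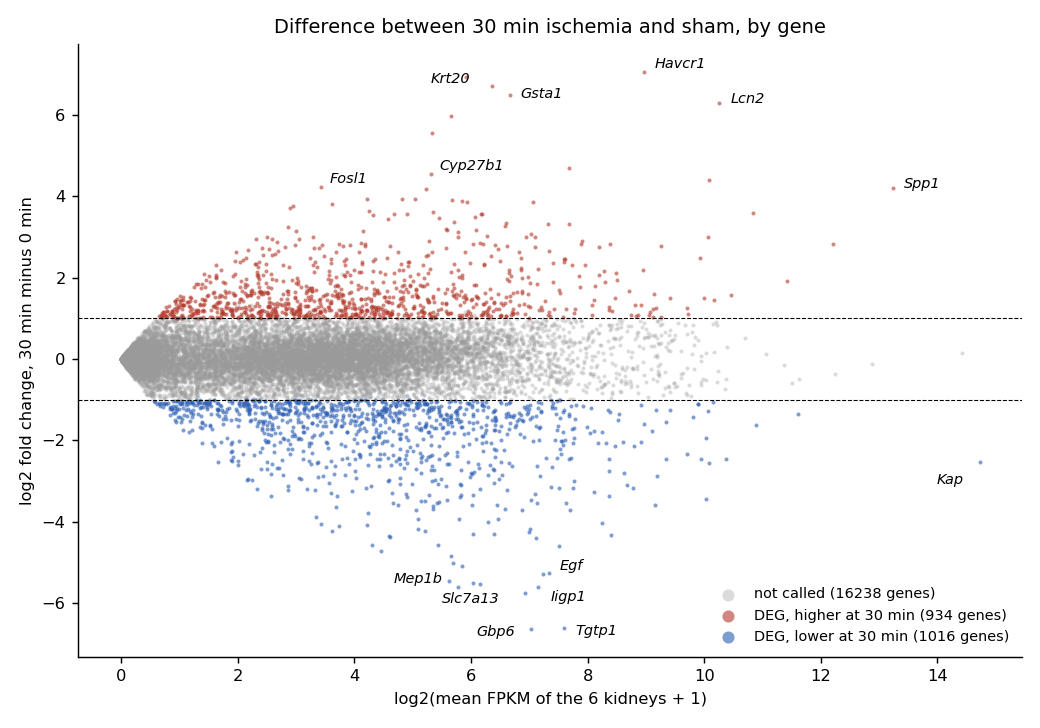
Each point is a gene, with its log2(mean FPKM + 1) over the 6 kidneys on the horizontal axis and its log2 fold change (30 min minus 0 min) on the vertical axis. Red and blue points are the 934 higher and 1016 lower DEGs, grey points were not called, and the dashed lines mark a log2 fold change of 1 and -1.

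The composition of the most abundant RNA changed. Kap (kidney androgen-regulated protein), the most abundant transcript of the sham kidneys, was at 49644, 47741 and 47048 FPKM there and at 5423, 5071 and 7468 FPKM in the 30 min kidneys, so that the groups lay far apart. Spp1 (osteopontin), a secreted phosphoprotein of injured tubules, took its place at the top of the 30 min kidneys. It was at 776, 1132 and 1705 FPKM in the sham kidneys and at 17182, 17223 and 20047 FPKM at 30 min. Both genes were named after their values were seen. The 22 injury markers together made up 0.233 to 0.440% of the summed FPKM in the sham kidneys and 4.39 to 5.71% at 30 min, and the 25 proximal tubule transporters went the other way, from 1.4 to 1.56% in the sham kidneys to 0.349 to 0.424%.

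**Figure D2:**
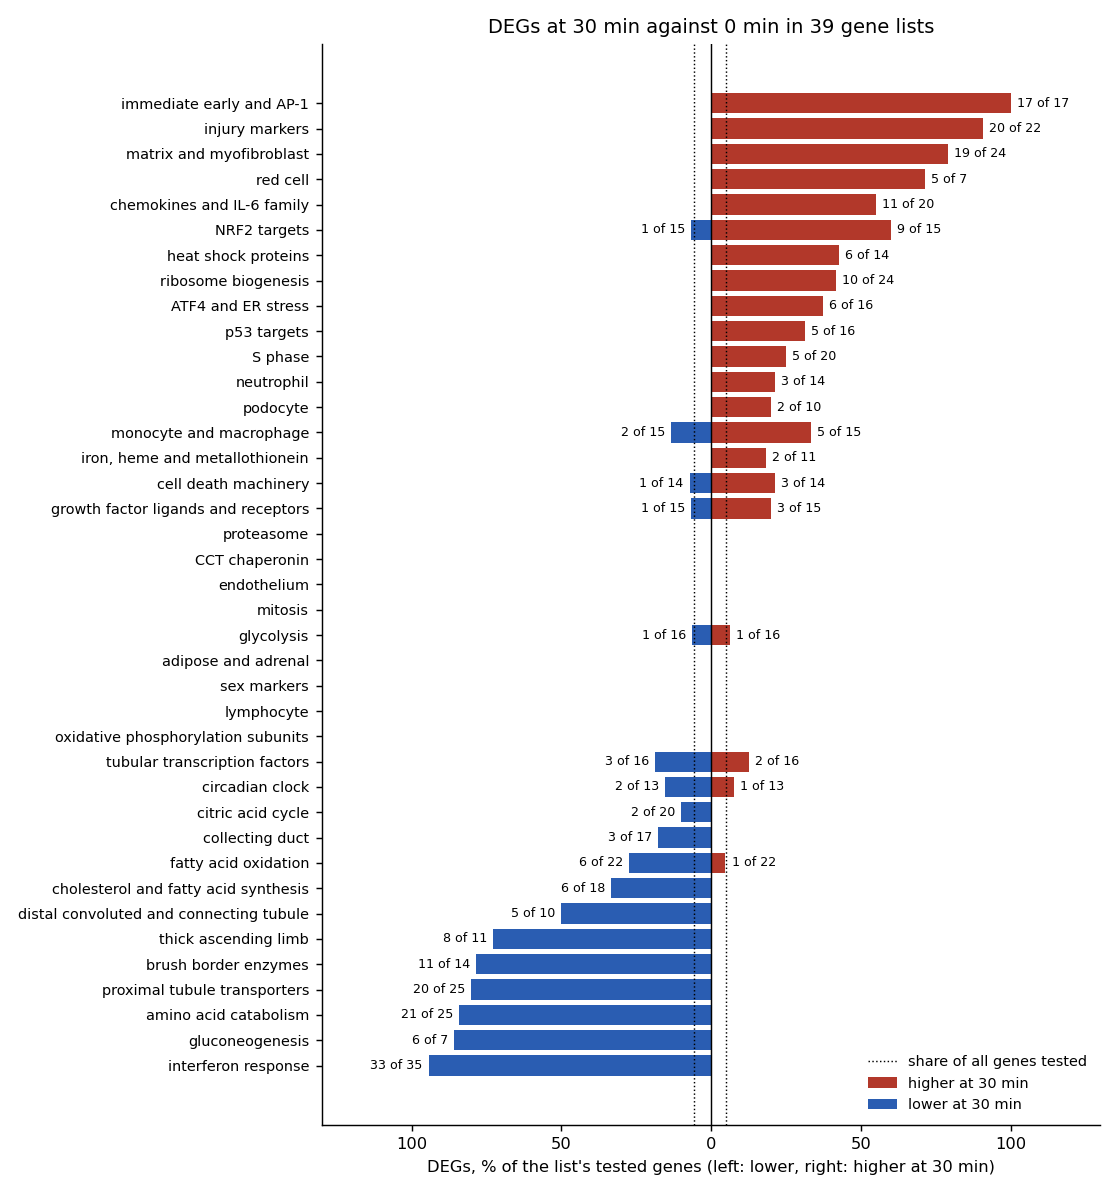
Bars give the percentage of each list's tested genes that were DEGs, to the right for higher and to the left for lower at 30 min, with the counts beside them and dotted lines at the shares of all genes tested (5.14% and 5.59%). The immediate early, injury and matrix lists reach farthest to the right, and the interferon, gluconeogenesis and amino acid catabolism lists farthest to the left.

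Of the 22 injury markers, 20 rose and none fell, and the median log2 fold change of the list was 3.47, against 0 for all genes. In all 22 the 3 kidneys of the 30 min group lay above the 3 sham kidneys, which held for 33.3% of all genes tested. Havcr1, a phosphatidylserine receptor that lets tubule cells engulf dying neighbours, was at 2.81, 2.49 and 22.0 FPKM in the sham kidneys and at 1179, 950.1 and 831 FPKM at 30 min. Its log2 fold change of 7.06 ± 0.74 (SE, adjusted p = 1.33e-07) was the largest increase of all genes tested. The third sham kidney was higher than the other two and still far below every 30 min kidney. Lcn2, an iron-siderophore binding protein used as a urinary injury marker, was at 11.5, 9.39 and 63.6 FPKM in the sham kidneys and at 1213, 2139 and 3921 FPKM at 30 min (6.30 ± 0.78, adjusted p = 1.03e-06). Sham kidney 3 was again the highest of its group, and kidney 3 was the highest of the 30 min group.

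Intermediate filament genes of stressed epithelium rose with them. Krt20 was at 0.23, 0.32 and 1.11 FPKM in the sham kidneys and at 107, 231 and 150.3 FPKM at 30 min (log2 fold change 6.71). The keratins Krt8, Krt18, Krt19 and Krt7 also rose. Sprr2f and Sprr1a encode small proline-rich proteins that are cross-linked into the envelope of squamous epithelium. Sprr2f was at 0.45, 0 and 1.55 FPKM in the sham kidneys and at 74.8, 127 and 93.1 FPKM at 30 min (5.98), and Sprr1a went from 6.53, 5.01 and 24.9 FPKM to 161, 111 and 89.7 FPKM (3.49). In neither gene did the groups overlap. The secreted metalloprotease inhibitor Timp1 (3.93) and the stress cytokine Gdf15 (3.88) rose as well, as did the calcium-binding S100a6 (4.71) and the chaperone Clu (3.0). The 2 markers not called were Vcam1 (1.11, adjusted p = 0.0850) and Cp (0.32, adjusted p = 0.187), although their groups did not overlap, and Vcam1 passed when FPKM was rescaled to a constant sum (1.36).

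Genes with other functions were also among the 10 largest increases. Gsta1, a glutathione transferase, was at 1.25, 0.83 and 1.44 FPKM in the sham kidneys and at 201, 256 and 144 FPKM at 30 min (6.50). Its value is uncertain because near-identical copies exist, among them Gm3776, which was listed at 0 in all 3 sham kidneys and at 116, 155 and 83.7 FPKM at 30 min. Cyp27b1, the enzyme that makes active vitamin D in the proximal tubule, went from 1.89, 2.59 and 1.6 FPKM to 86.4, 83.6 and 55.2 FPKM (4.55). Mt2, a metal-binding metallothionein, went from 69.5, 54.0 and 107 FPKM to 1592, 2300.4 and 2405 FPKM (4.40). In each of them the groups lay apart by many times the spread within a group.

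The AP-1 site TGANTCA (AP-1 is the dimer of Fos and Jun proteins) is shown for the Sprr genes because AP-1 genes rose in the same kidneys. Both strands of the 250 bases before the RefSeq start were searched, and 4 of the 16 called injury markers with a promoter sequence held the site, against 7.82% of 27025 symbols. Of the 13 called immediate early genes with a promoter sequence, 0 held it in this window. The stretches below are from RefSeq on build GRCm38.p6, 5′ to 3′ on the gene's strand, with the AP-1 letters in capitals, at chr3:92364953-92365032 on the plus strand for Sprr2f and chr3:92485970-92486049 on the minus strand for Sprr1a, which was added after the sequences were seen. Sprr1a holds the site at 2 places, and the stretch of Sprr2f also holds letters of the interferon motif ISRE.
Sprr2f: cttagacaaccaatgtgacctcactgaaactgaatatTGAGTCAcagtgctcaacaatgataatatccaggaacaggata
Sprr1a: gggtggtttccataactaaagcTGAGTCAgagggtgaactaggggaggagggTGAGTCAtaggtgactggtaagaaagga

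All 17 immediate early and AP-1 genes rose, with a median log2 fold change of 1.91, and in all 17 the 30 min kidneys lay above the sham kidneys. Over all genes tested, 5.14% rose and 33.3% lay above in this way. Fosl1 (Fra-1), a Fos family subunit of AP-1, was at 0, 0.04 and 0.09 FPKM in the sham kidneys and at 14.8, 19.8 and 23.4 FPKM at 30 min (4.24). Egr1, a zinc finger factor induced within minutes of stress, went from 3.31, 1.71 and 3.54 FPKM to 47.2, 39.2 and 52.9 FPKM (3.57). Fos went from 0.61, 0.38 and 0.73 FPKM to 8.99, 5.75 and 16.3 FPKM (2.65), and Junb from 7.89, 8.97 and 12.4 FPKM to 60.8, 55.4 and 77.6 FPKM (2.56). These genes were thus high in every 30 min kidney a day after the clamp was released. Myc, the growth factor-induced transcription factor, rose by 2.39 and Atf3, a stress-induced partner of Jun, by 2.32, both named after their values were seen.

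**Figure D3:**
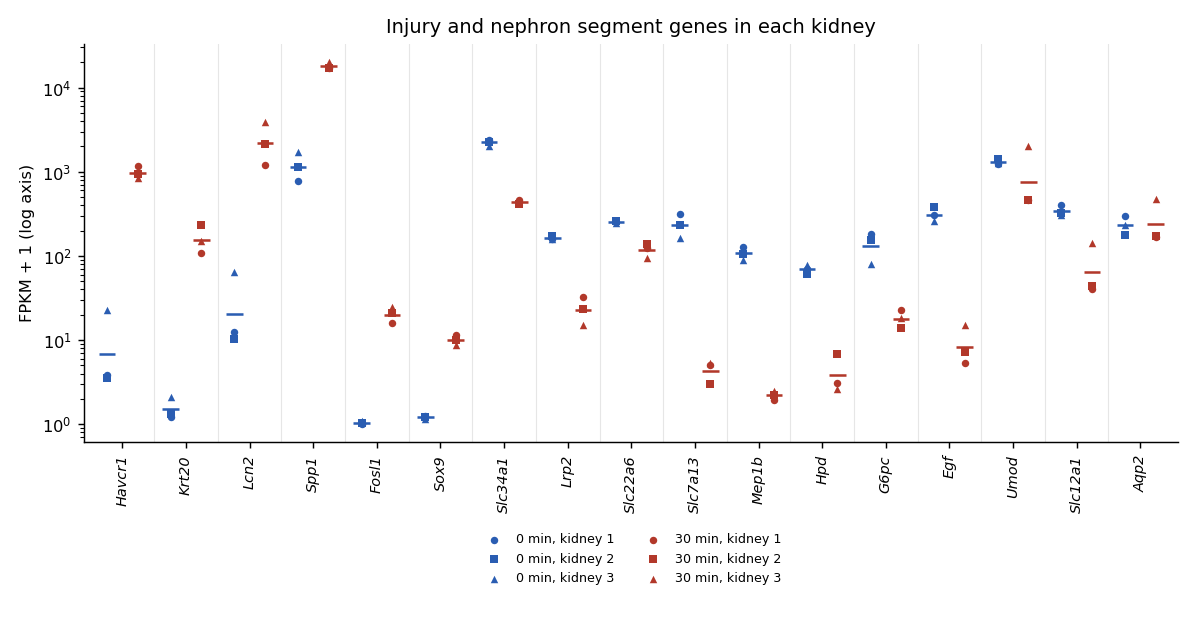
FPKM + 1 on a log axis for 17 injury and nephron segment genes in the 3 sham kidneys (blue) and the 3 kidneys of the 30 min group (red), with marker shapes for kidneys 1 to 3 and bars at the mean on the log scale. The injury genes at the left lie higher at 30 min without overlap, the proximal tubule genes lie lower, and for Umod and Aqp2 the triangle of 30 min kidney 3 lies above the sham kidneys.

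Genes of the proximal tubule fell. Of 25 transporter genes 20 fell and none rose (median log2 fold change -1.75), and of 14 brush border enzyme genes 11 fell and none rose (median -2.15). In this bulk tissue, fewer proximal tubule cells and less RNA per cell cannot be told apart. Slc7a13, the aspartate, glutamate and cystine carrier of the straight proximal tubule, was at 316, 235 and 161 FPKM in the sham kidneys and at 3.98, 1.99 and 4.30 FPKM at 30 min, a decrease of 5.74 ± 0.38 (SE, adjusted p = 3.92e-10). Slc22a7, an organic anion transporter, went from 107, 97.8 and 85.4 FPKM to 1.62, 1.95 and 4.05 FPKM (-4.85). Its relative Slc22a30 fell by 3.62 and the water channel Aqp1 by 3.27 on the log2 scale. The groups lay far apart in these genes, and for Aqp1 the highest 30 min kidney was at 85.1 FPKM and the lowest sham kidney at 471 FPKM.

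Other transporters had smaller decreases. Slc34a1 (NaPi-IIa), the main phosphate transporter, was at 2377, 2272 and 2028 FPKM in the sham kidneys and at 460.1, 411 and 450.1 FPKM at 30 min (-2.46). Lrp2 (megalin), the receptor that takes filtered proteins back, was at 159, 169 and 156 FPKM and at 31.5, 22.3 and 14.1 FPKM (-2.85), and its partner Cubn fell by 2.69. Slc22a6 (OAT1) had a log2 fold change of -1.01, which dropped out of the DEGs without 30 min kidney 3 (-0.87) or sham kidney 2 (-0.99). These genes were named after their values were seen. Slc5a2 (SGLT2), the glucose transporter of the first proximal segment, was at 137, 113 and 129 FPKM in the sham kidneys and at 118, 93.4 and 79.8 FPKM at 30 min (-0.33, adjusted p = 0.305), and these ranges overlapped. The bicarbonate exporter Slc4a4 was also not called (-0.75), although each 30 min kidney lay below each sham kidney.

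Among the brush border enzymes, Mep1b, the beta subunit of the protease meprin, went from 127, 105 and 89.5 FPKM in the sham kidneys to 0.92, 1.22 and 1.47 FPKM at 30 min (-5.61). Cyp7b1, an oxysterol hydroxylase that is no member of these lists, was also among the 10 largest decreases, from 126, 153 and 136 FPKM to 1.68, 1.69 and 2.55 FPKM (-5.54), with Akr1c14, a steroid-reducing enzyme (-5.45), and Mettl7a2 (-5.50). The alpha subunit Mep1a remained measurable, going from 762, 743 and 677 FPKM to 89.2, 77.4 and 88.9 FPKM (-3.09). Ace, the angiotensin-converting enzyme, fell by 2.49 and the dipeptidase Cndp1 by 2.90. Alpl, the tissue alkaline phosphatase (-0.53), and the aminopeptidase Enpep (-0.60) were not called.

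The HNF4 letters CAAAGTCCA are shown for Slc3a1, the subunit that carries the cystine transporter to the brush border, because HNF4A is a known activator of proximal tubule genes. Of the 16 called transporters with a promoter sequence 1 held these letters on either strand, against 0.451% of 27025 symbols. Slc3a1 was at 306, 324 and 293 FPKM in the sham kidneys and at 78.5, 61.9 and 44.4 FPKM at 30 min (-2.33). Its stretch is at chr17:85028267-85028346 (GRCm38.p6, plus strand, RefSeq), with the HNF4 letters in capitals.
Slc3a1: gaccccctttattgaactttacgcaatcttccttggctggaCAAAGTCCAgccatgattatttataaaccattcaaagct

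Enzymes of proximal tubule metabolism fell with the transporters. Of 25 amino acid catabolism genes 21 fell (median -1.49), and of 7 gluconeogenesis genes 6 fell (median -1.64), with none rising in either list. Hpd, the dioxygenase of tyrosine breakdown, went from 69.4, 60.0 and 77.4 FPKM in the sham kidneys to 2.06, 5.90 and 1.65 FPKM at 30 min (-4.24). Hao2, a peroxisomal hydroxyacid oxidase, fell by 3.71, Gatm, the first enzyme of creatine synthesis, by 3.16 and Haao of the kynurenine pathway by 2.60. G6pc, which releases free glucose, went from 182, 152 and 79.6 FPKM to 21.9, 12.9 and 17.2 FPKM (-2.86), and Fbp1, the bisphosphatase of the same pathway, fell by 2.03. None of these genes had overlapping groups. Pck1, which supplies the pathway with phosphoenolpyruvate, was at 469, 530.5 and 347 FPKM in the sham kidneys and at 351, 985 and 275 FPKM at 30 min, with overlapping groups and no call (-0.07).

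Fatty acid oxidation genes (median -0.49) moved unevenly, with 6 of 22 falling and 1 rising, against 5.59% and 5.14% of all genes tested. Acsm3 (-4.19), Acsm2 (-2.14), which activate medium-chain fatty acids, Acadm (-2.45), the medium-chain dehydrogenase, and the peroxisomal Ehhadh (-2.06) fell, while Pdk4, the kinase that inhibits the pyruvate dehydrogenase complex, rose from 5.97, 6.87 and 5.54 FPKM to 15.6, 26.3 and 37.0 FPKM (1.77). Of 73 oxidative phosphorylation subunits 0 were called in either direction by limma. An unadjusted p below 0.05 was found for 64 of them, against 56.7% of all genes tested. Negative log2 fold changes were found for 68 (median -0.37). In 62 each 30 min kidney lay below each sham kidney, which held for 21.2% of all genes tested. Atp5b, the beta subunit of ATP synthase, was at 1573, 1597 and 1569 FPKM in the sham kidneys and at 1047, 1000.4 and 1044 FPKM at 30 min (-0.73, adjusted p = 5.69e-08). The replicate spread of these genes was small and their differences stayed below the fold threshold. Of 16 glycolysis genes 1 rose (Hk2, the inducible hexokinase, 1.20) and 1 fell (Pgam2, the muscle isoform of phosphoglycerate mutase). Both counts were near the shares of all genes tested, 5.14% higher and 5.59% lower. Yet 12 of the 16 had positive log2 fold changes and 4 negative (median 0.31). In 10 each 30 min kidney lay above each sham kidney and in 2 each lay below, against 33.3% and 21.2% of all genes tested. The count that rose was 2 with a pseudocount of 0.1 or 0.01 FPKM or with FPKM rescaled to a constant sum. It was 2 without 30 min kidney 1 or 2 and 3 without sham kidney 1. Pgam2 was at 74.0, 63.7 and 66.5 FPKM in the sham kidneys and at 22.7, 24.5 and 32.9 FPKM at 30 min (-1.39). Pfkfb3, which makes the activator of phosphofructokinase, was not called (0.26, adjusted p = 0.353).

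Of 16 transcription factors of the tubule, Sox9 and Sox4 rose and Emx1, Maf and Ppargc1a fell. Sox9, a factor of tubule progenitors and repair, was at 0.25, 0.22 and 0.16 FPKM in the sham kidneys and at 10.4, 9.04 and 7.77 FPKM at 30 min (3.0). Ppargc1a (PGC-1alpha), the coactivator of mitochondrial biogenesis, fell by 1.08. The lineage factor Hnf4a lay lower in each 30 min kidney than in each sham kidney without passing the fold threshold (-0.61).

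Downstream of the proximal tubule, some genes of each segment list fell. Of 11 thick ascending limb genes 8 fell (median -1.79), of 10 genes of the distal convoluted and connecting tubule 5 fell (median -1.04), and of 17 collecting duct genes 3 fell (median -0.57). No gene of these lists rose. Egf, the growth factor precursor secreted by the distal nephron, was at 301, 375 and 259 FPKM in the sham kidneys and at 4.29, 6.13 and 14.1 FPKM at 30 min (-5.27). Slc12a1 (NKCC2), the salt cotransporter of the thick ascending limb, went from 400.1, 324 and 303 FPKM to 39.3, 43.2 and 142 FPKM (-2.43). Kidney 3 was the highest of the 30 min group for both, yet below each sham kidney.

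For Umod (uromodulin), the most abundant protein of normal urine, the groups overlapped. It was at 1247, 1405 and 1255 FPKM in the sham kidneys and at 463, 454 and 2034 FPKM at 30 min. Its log2 fold change of -1.05 depended on the setting, since it was -0.74 without 30 min kidney 1 or 2, -0.98 without sham kidney 2 and -0.79 without quantile normalization, each no longer a DEG. Aqp2, the vasopressin-regulated water channel, also had its highest level in 30 min kidney 3, with 295, 178 and 231 FPKM in the sham kidneys and 166, 172 and 468 FPKM at 30 min. Its log2 fold change was 0.15 over the 6 kidneys and -0.33 without 30 min kidney 3, and it was not called. The share of RNA from these segments in 30 min kidney 3, and its part in these results, was not tested.

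Pvalb, a calcium buffer of the early distal convoluted tubule, went from 30.6, 26.1 and 15.8 FPKM to 0.18, 0.69 and 0.65 FPKM (-4.11), and Kl (Klotho), the coreceptor for FGF23, from 186, 167 and 160.4 FPKM to 26.6, 25.6 and 30.9 FPKM (-2.55). Calb1, a second calcium buffer, fell by 1.57. Slc12a3 (NCC), the thiazide-sensitive cotransporter of the same segment, was not called (-0.73) but was a DEG without 30 min kidney 3 (-1.03). In the collecting duct, the band 3 exchanger Slc4a1 (-2.51), the vasopressin receptor Avpr2 (-1.39) and Aqp6 of acid-secreting cells (-1.35) fell, and Hsd11b2, which protects the mineralocorticoid receptor from cortisol-like hormones, was not called (-0.51).

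The interferon response list held the most decreases of the 39 lists. Of 35 genes 33 fell and none rose, the median log2 fold change was -2.81, and in 29 each 30 min kidney lay below each sham kidney. Over all genes tested, 5.59% fell and 21.2% lay below in this way. The sham kidneys were themselves uneven. Tgtp1, a guanosine triphosphatase that attacks the vacuoles of intracellular parasites, was at 9.30, 613 and 535 FPKM in sham kidneys 1, 2 and 3 and at 0.74, 0.78 and 0.53 FPKM at 30 min (-6.62 ± 0.93 SE, adjusted p = 5.10e-06). Gbp6, a guanylate-binding protein, was at 17.7, 466 and 291 FPKM and at 0.36, 0.57 and 0.53 FPKM (-6.64). Iigp1 was at 6.11, 470.1 and 361 FPKM and at 0.88, 1.39 and 2.19 FPKM (-5.60), and Igtp at 17.4, 503 and 363 FPKM and at 2.75, 2.97 and 3.98 FPKM (-5.30). Sham kidney 1 was thus far below the other sham kidneys and still above the 30 min kidneys in these genes.

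Irf1, a transcription factor induced early by interferon, was at 8.82, 76.6 and 63.9 FPKM in the sham kidneys and at 10, 7.17 and 9.02 FPKM at 30 min, so that sham kidney 1 lay inside the range of the 30 min kidneys, and Isg15 and Cxcl10 also overlapped through sham kidney 1. MHC class II genes were more even across the sham kidneys than the GTPase genes. Cd74, the invariant chain of MHC class II, was at 674, 622 and 624 FPKM in the sham kidneys and at 25.0, 21.1 and 66.7 FPKM at 30 min (-4.33). H2-Ab1, a class II chain, fell by 4.59, and B2m, the light chain of class I, went from 1332, 2090.2 and 2127 FPKM to 264, 328 and 362 FPKM (-2.55). These genes beyond the 4 with the largest decreases were named after their values were seen. Without sham kidney 1 the median of the list was -3.77, and without sham kidney 2 or 3 it was -2.39 or -2.40. Tapbp, which loads peptides on class I, was not called (-0.64) but passed without sham kidney 1 (-1.10). With only the 2 groups in the fit, 16 of the 35 genes fell, and Iigp1 was not among them.

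**Figure D4:**
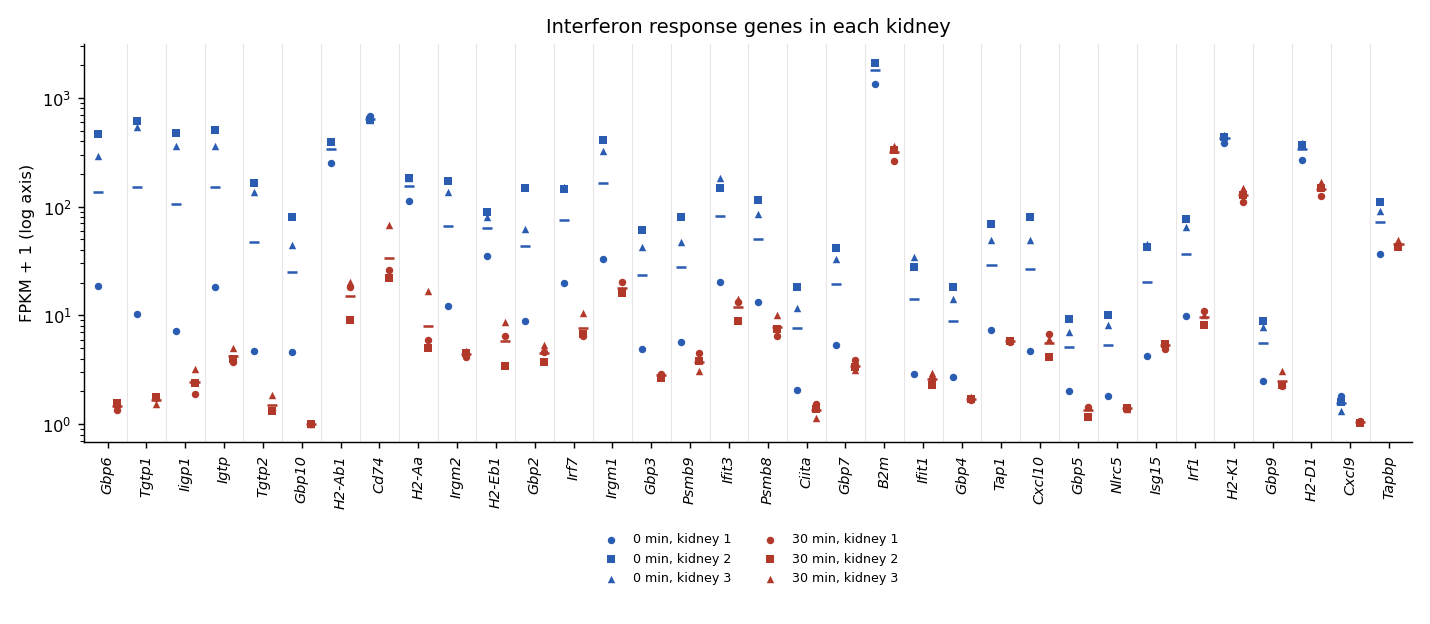
FPKM + 1 on a log axis for 34 of the 35 interferon response genes, ordered by log2 fold change, in the 3 sham kidneys (blue) and the 3 kidneys of the 30 min group (red), with bars at the mean on the log scale. For most GTPase genes sham kidney 1 (blue circle) lies well below sham kidneys 2 and 3 and above the red points.

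The promoters of 4 of these GTPase genes are shown because they hold both classical interferon motifs side by side. The letters GAAANNGAA (ISRE, bound by the type I interferon complex and by IRF proteins) and TTCNNNGAA (GAS, the interferon gamma activated site) were searched on both strands of the 250 bases before the start. The motifs can share letters where a GAS ends in the GAA that opens an ISRE. ISRE letters were in 14 of the 23 called genes with a promoter sequence (8.18% of 27025 symbols), GAS letters in 8 of 23 (8.13% of symbols) and both in 6 of 23 (0.881% of symbols). In the 4 genes below, both motifs lie on the coding strand and the ISRE begins 11 bases after the first base of the GAS. The sequences are from RefSeq on build GRCm38.p6, 5′ to 3′ on the gene's strand with the GAS and the ISRE in capitals, at chr11:48992285-48992364 (minus strand) for Tgtp1, chr11:49064244-49064323 (minus) for Tgtp2, chr11:58199476-58199555 (plus) for Igtp and chr11:58214872-58214951 (plus) for Irgm2. Tgtp1 came from the rule for promoters and the other 3 were added after the sequences were seen.
Tgtp1: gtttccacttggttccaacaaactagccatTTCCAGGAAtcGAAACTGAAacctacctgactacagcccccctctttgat
Tgtp2: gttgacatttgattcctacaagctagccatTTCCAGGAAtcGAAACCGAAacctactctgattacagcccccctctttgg
Igtp: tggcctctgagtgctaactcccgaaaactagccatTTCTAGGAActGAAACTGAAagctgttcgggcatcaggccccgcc
Irgm2: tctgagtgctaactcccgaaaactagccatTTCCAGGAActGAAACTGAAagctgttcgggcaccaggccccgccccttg

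The other 2 genes of this set followed the same order of kidneys. Tgtp2, whose reads may be shared with its near copy Tgtp1, was at 3.68, 163 and 135 FPKM in the sham kidneys and at 0.36, 0.31 and 0.87 FPKM at 30 min (-5.02), and Irgm2 was at 11.2, 171 and 134 FPKM and at 3.13, 3.51 and 3.74 FPKM (-3.93).

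Chemokines and IL-6 family genes rose while the interferon genes fell. Of 20, 11 rose and none fell (median 1.11). Cxcl1, a neutrophil attractant, was at 0.83, 1.48 and 3.60 FPKM in the sham kidneys and at 50.7, 36.1 and 20.6 FPKM at 30 min (3.55), and Cxcl2, its relative, rose by 1.95. Socs3, the feedback inhibitor of IL-6 receptor signalling, went from 1.38, 1.18 and 4.16 FPKM to 15.7, 17.8 and 20.6 FPKM (2.53), and Il34, a ligand of the macrophage receptor Csf1r, from 7.76, 8.40 and 8.92 FPKM to 42.4, 52.6 and 54.5 FPKM (2.38). Il6 itself was at 0, 0 and 0.72 FPKM in the sham kidneys and at 0.61, 1.30 and 0.59 FPKM at 30 min, so that the third sham kidney lay inside the 30 min range. Its log2 fold change was 0.57 (adjusted p = 0.0275), below the fold threshold, and 2.06 with a pseudocount of 0.1 FPKM. Ptgs2 (COX-2), the inducible prostaglandin synthase, was at 0.11, 0.17 and 1.15 FPKM in the sham kidneys and at 1.17, 1.64 and 2.12 FPKM at 30 min (0.85), and was a DEG without sham kidney 3 (1.18).

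Markers of blood cells moved in part. Of 15 monocyte and macrophage genes 5 rose and 2 fell, of 14 neutrophil genes 3 rose, and of 15 lymphocyte and 12 endothelial genes 0 were called by limma, with 9 and 7 at an unadjusted p below 0.05 (56.7% of all genes tested). All 15 lymphocyte genes had negative log2 fold changes (median -0.25), and 7 fell with a pseudocount of 0.1 or 0.01 FPKM. Without 30 min kidney 1, 2 endothelial genes rose. Cd68, a lysosomal protein of phagocytes, went from 3.04, 3.61 and 3.48 FPKM to 25.7, 28.2 and 30.9 FPKM (2.63), and the endotoxin coreceptor Cd14 (2.01) and the chitinase-like Chil3 (2.34) also rose. Itgam (CD11b) was at 0.37, 0.27 and 0.33 FPKM in the sham kidneys and at 1.67, 1.56 and 5.07 FPKM at 30 min (1.34), and without 30 min kidney 3 it was no DEG (0.96) and 3 genes of the list rose. Csf1r, the receptor of resident macrophages, fell from 18.3, 13.7 and 15.3 FPKM to 6.59, 6.47 and 7.0 FPKM (-1.23), and C1qa and C1qb were not called (-0.49 and -0.30). The neutrophil genes stayed low, with S100a9 at 1.46, 3.08 and 3.94 FPKM in the sham kidneys and at 12.5, 9.85 and 6.92 FPKM at 30 min (1.39). The summed level of the neutrophil list was 5.59 to 12.3 FPKM in the sham kidneys and 27.1 to 34.4 FPKM at 30 min. S100a8 (1.35) was no DEG without sham kidney 1 (0.85) or with only the 2 groups in the fit (adjusted p = 0.102). The count of neutrophil genes that rose was 5 without sham kidney 3 and 7 with a pseudocount of 0.1 or 0.01 FPKM.

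Hemoglobin transcripts, which come from red cells held in the tissue, were higher at 30 min. Of 7 red cell genes 5 rose (median 2.04), and the summed level was 134 to 657 FPKM in the sham kidneys and 814 to 1489 FPKM at 30 min. Hba-a1 was at 246, 76.8 and 56.5 FPKM in the sham kidneys and at 541, 599 and 333 FPKM at 30 min (2.16), with sham kidney 1 nearest to the injured kidneys. The near-identical Hba-a1 and Hba-a2 and the pair Hbb-bs and Hbb-bt may share reads. With only the 2 groups in the fit 3 of the 7 rose. How far blood held in the tissue moved the other lists was not tested. Of 10 podocyte genes 2 rose, Synpo (1.27) and Cdkn1c (1.18), and Cdkn1c was no DEG without sham kidney 1 (0.99) or 30 min kidney 2 (0.98). The count was 4 without 30 min kidney 1 and 4 with a pseudocount of 0.1 or 0.01 FPKM. Of 5 adipose and adrenal genes, markers of tissue dissected along with the kidney, 0 were called by limma. An unadjusted limma p below 0.05 was found for 0 of them, against 56.7% of all genes tested. Still, Cfd was at 15.0 FPKM in 30 min kidney 1 and at or below 1.69 FPKM in the other 5 kidneys.

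Matrix and myofibroblast genes rose in 19 of 24 cases, and none fell (median 1.59). Tagln (SM22), an actin-binding protein of smooth muscle and myofibroblasts, was at 9.45, 6.48 and 10.5 FPKM in the sham kidneys and at 86.0, 69.3 and 247 FPKM at 30 min (3.56). Acta2 (smooth muscle actin) had the same high kidney, with 8.69, 8.66 and 11.6 FPKM in the sham kidneys and 68.8, 48.7 and 177 FPKM at 30 min (3.0). Ccn1 and Ccn2, secreted targets of the YAP pathway, rose by 3.37 and 2.82. Even without the high kidney 3, the remaining 30 min kidneys lay above each sham kidney for Tagln and Acta2. Collagen genes rose less, with Col1a1 at 5.08, 2.57 and 3.79 FPKM in the sham kidneys and at 23.1, 11.4 and 35.6 FPKM at 30 min (2.14, named after its values were seen). Pdgfrb, the pericyte receptor (0.80), and Pdgfra of fibroblasts (-0.41) were not called.

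Stress pathways rose in part. Of 15 NRF2 targets 9 rose and 1 (Me1) fell, with Hmox1, which degrades heme, going from 18.8, 30.0 and 36.1 FPKM to 256, 239 and 203 FPKM (3.07) and Srxn1, which repairs peroxiredoxins, from 26.3, 29 and 33.2 FPKM to 186, 316 and 227 FPKM (3.0). Gclm, which limits glutathione synthesis, was not called (0.05). Of 14 heat shock genes 6 rose, led by Hspb1, a small heat shock protein that binds actin, at 16.2, 13.4 and 21.4 FPKM in the sham kidneys and 147, 191 and 190.5 FPKM at 30 min (3.36). Hspa1a and Hspa1b, near-identical copies of inducible HSP70, rose by 2.29 and 1.98, while the constitutive Hspa8 had a log2 fold change of -0.58 and overlapping groups. Of 16 p53 targets 5 rose, among them the cyclin-dependent kinase inhibitor Cdkn1a (p21), at 8.93, 7.32 and 8.28 FPKM in the sham kidneys and 62.2, 84.8 and 109.9 FPKM at 30 min (3.17), whereas Mdm2 (0.13) and Ccng1 (-0.08) were not called.

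Of 16 genes of the ATF4 and endoplasmic reticulum stress list 6 rose. They were enzymes and regulators of amino acid supply, Phgdh, Asns, Psat1, Mthfd2, Trib3 and Chac1, while the chaperones Hspa5 (-0.60) and Hsp90b1 (-0.52) were not called and lay lower in each 30 min kidney than in each sham kidney. Asns, the asparagine synthetase, was at 2.51, 2.37 and 5.21 FPKM in the sham kidneys and at 20.2, 18.4 and 16.0 FPKM at 30 min (2.06). The amino acid response element TGATGNAA, the site read by ATF4, is shown for Asns, and for Chac1, a glutathione-degrading enzyme added after the sequences were seen. It was in 2 of the 6 called genes, against 3.91% of symbols. Chac1 (1.07) was no DEG without sham kidney 1 (0.84) or sham kidney 2 (0.94), or with only the 2 groups in the fit (adjusted p = 0.0554). The stretches are from RefSeq, GRCm38.p6, at chr6:7693210-7693289 (minus strand) for Asns and chr2:119351013-119351092 (plus strand) for Chac1, where the element is on the opposite strand, and capitals mark the element.
Asns: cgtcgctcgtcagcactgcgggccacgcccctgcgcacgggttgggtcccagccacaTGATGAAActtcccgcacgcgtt
Chac1: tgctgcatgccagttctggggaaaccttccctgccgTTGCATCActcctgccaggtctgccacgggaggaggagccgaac

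Of 11 genes of iron, heme and metallothionein 2 rose, Mt1 and Mt2, and none fell (median 0.38). Mt1 went from 245, 163 and 239 FPKM to 2785, 3726 and 3860 FPKM (3.58). The ferritin chains were among the most abundant transcripts, with Fth1 at 5205, 5375 and 5707 FPKM in the sham kidneys and at 9766, 10356 and 8554 FPKM at 30 min. The levels did not overlap, but the log2 fold change was -0.12 after quantile normalization and 0.81 without it, so no direction is given. The same flip held for Ftl1 (-0.38 and 0.66) and for Gapdh (-0.15 and 0.41). Of 14 cell death genes 3 rose and 1 fell, against 5.14% and 5.59% of all genes tested. Ripk3, the kinase of necroptosis, went from 0.41, 0.23 and 0.60 FPKM to 4.44, 4.10 and 4.70 FPKM (1.86), and Acsl4, which makes membranes prone to ferroptosis, from 10.9, 9.78 and 10.9 FPKM to 42.5, 49.2 and 43.1 FPKM (1.94). Mlkl, the executor of necroptosis, rose by 1.34 but was no DEG without sham kidney 1 (0.86), and the interferon-inducible sensor Zbp1 fell by 2.05. With only the 2 groups in the fit, neither Mlkl (adjusted p = 0.0666) nor Zbp1 (adjusted p = 0.0819) was a DEG.

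Growth signals were mixed. Of 15 ligands and receptors 3 rose, Hbegf (1.89), which binds the EGF receptor, Tgfb1 (1.30) and Inhbb (1.01), and Fgf1 fell (-1.51). Over all genes tested, 5.14% rose and 5.59% fell. Inhbb was no DEG without sham kidney 1 (0.93) or 30 min kidney 2 (0.89). Of 24 ribosome biogenesis genes 10 rose and none fell (median 0.88), and in 23 each 30 min kidney lay above each sham kidney. Ppan, a nucleolar assembly factor, was at 7.67, 6.98 and 8.19 FPKM in the sham kidneys and at 27.7, 26.5 and 20.4 FPKM at 30 min (1.48). Without 30 min kidney 1, 6 of the list rose. Of the 31 proteasome genes 0 were called by limma, yet 30 had an unadjusted p below 0.05, against 56.7% of all genes tested. All 31 had positive log2 fold changes with a median of 0.55. In 30 each 30 min kidney lay above each sham kidney, which held for 33.3% of all genes tested. Psmb5, a catalytic subunit, was at 121, 119.8 and 131 FPKM in the sham kidneys and at 235, 242 and 207 FPKM at 30 min (1.0), just under the fold threshold, and was a DEG without sham kidney 3 (1.03) or 30 min kidney 3 (1.02).

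S phase genes, which copy DNA before division, gave a weaker difference from sham. Of 20 genes 5 rose (Rrm2, Mcm3, Mcm4, Ccne1 and Gins2) and all 20 had positive log2 fold changes (median 0.80). The summed level of the list was 114, 92.0 and 142 FPKM in the sham kidneys and 304, 175 and 195 FPKM at 30 min, so that kidney 1 was the highest of its group. Rrm2, a subunit of the enzyme that makes deoxynucleotides, was at 4.28, 2.03 and 3.66 FPKM in the sham kidneys and at 20.1, 7.53 and 9.92 FPKM at 30 min (1.45 ± 0.41 SE, adjusted p = 0.00509). The count depended on single kidneys and on scaling. It was 1 without 30 min kidney 1, 8 without 30 min kidney 2, 3 without sham kidney 1 or 2, 10 without sham kidney 3 and 9 without quantile normalization. Mcm3 (0.84), Mcm4 (0.88), Ccne1 (0.79) and Gins2 (0.85) were no DEGs without 30 min kidney 1. Mcm4 and Gins2 were also lost without sham kidney 1 (1.0 and 0.94) or sham kidney 2 (0.99 and 0.86). Of 20 mitosis genes (median 0.35) 0 were called by limma and 2 had an unadjusted p below 0.05, against 56.7% of all genes tested.

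The direct comparison of 30 with 28 min of ischemia asks what 2 further minutes add, and it shares the 30 min kidneys with the comparison above. It gave 73 higher (0.401%) and 118 lower (0.649%) DEGs. With these few kidneys the count was unstable. It was 83 without 30 min kidney 3, 126 without 28 min kidney 2 and 339 without 30 min kidney 1, and no gene passed with the 2 groups alone in the fit, where 4209 genes had an unadjusted p below 0.05 in limma. S phase genes were the list with the most DEGs. Of 20, 16 were lower at 30 min than at 28 min (median -1.12), and in 20 of 20 each 28 min kidney lay above each 30 min kidney, which held for 16.4% of all genes tested. The summed level at 28 min was 445, 523 and 522 FPKM.

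**Figure D5:**
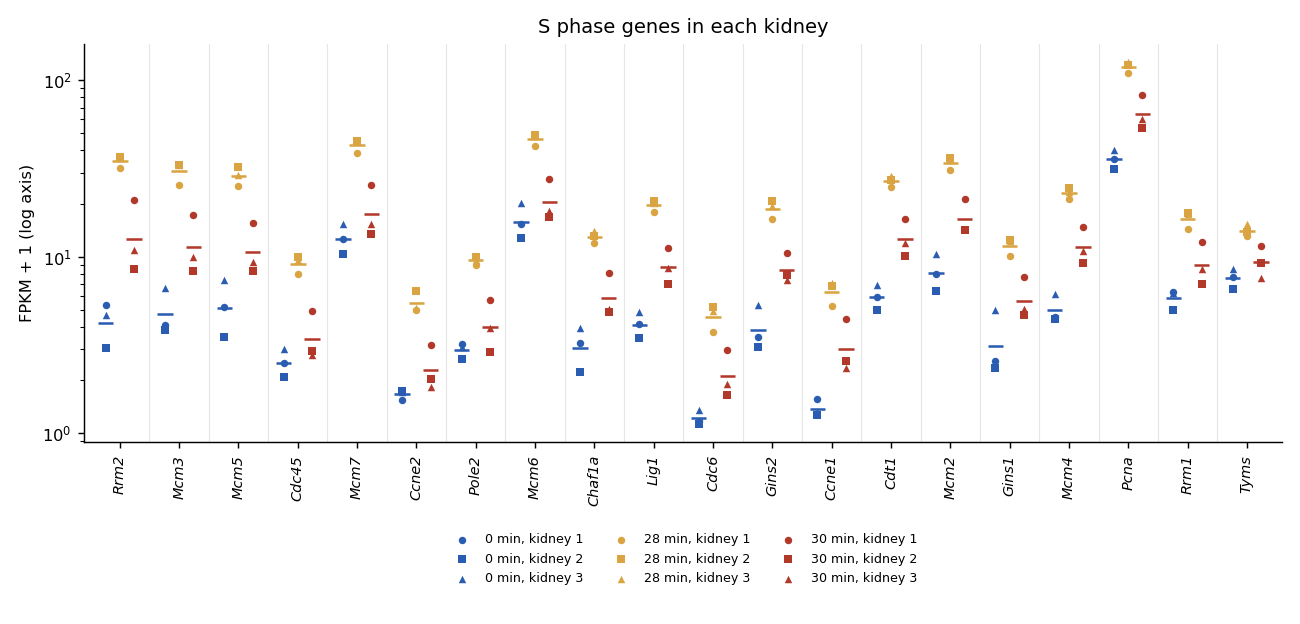
FPKM + 1 on a log axis for 20 S phase genes in the 3 sham kidneys (blue), the 3 kidneys of the 28 min group (yellow) and the 3 of the 30 min group (red), with marker shapes for kidneys 1 to 3 and bars at the mean on the log scale. In each gene the yellow points lie above the red ones, and 30 min kidney 1 (red circle) is the highest of its group.

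Rrm2 was at 30.8, 35.5 and 35.2 FPKM in the 28 min kidneys, above the 30 min kidneys given above (-1.44 ± 0.41 SE, adjusted p = 0.0238). Mcm3, a subunit of the replicative helicase, was at 3.07, 2.84 and 5.66 FPKM in the sham kidneys, at 24.6, 32.2 and 32.2 FPKM at 28 min and at 16.3, 7.25 and 9.01 FPKM at 30 min (-1.4 against 28 min and 1.14 against sham). Ccne1, the cyclin that opens S phase, was at 0.56, 0.26 and 0.32 FPKM, at 4.24, 5.81 and 6.13 FPKM and at 3.44, 1.55 and 1.32 FPKM in the same order (-1.06 and 1.06). In each of these 3 genes the 30 min kidneys lay between the other groups without overlap. Uhrf1, which keeps DNA methylation through replication, had this order as well, with 1.92, 1.28 and 3.07 FPKM in the sham kidneys, 29.7, 35.9 and 37.7 FPKM at 28 min and 19.6, 7.52 and 9.77 FPKM at 30 min (-1.48 against 28 min), and was named after its values were seen. Each of these 4 genes was no DEG against 28 min without 30 min kidney 2 or 3 or 28 min kidney 2 or 3. Without 1 kidney the count of 16 was 19 (30 min kidney 1), 6 (30 min kidney 2), 5 (30 min kidney 3), 15 (28 min kidney 1), 6 (28 min kidney 2) or 7 (28 min kidney 3).

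Vitamin D enzymes differed between the longest ischemia times. Cyp27b1 was at 59.5, 3.82 and 1.28 FPKM at 28 min against 86.4, 83.6 and 55.2 FPKM at 30 min (3.14, adjusted p = 0.00711), so that 28 min kidney 1 lay within the 30 min range, and without 28 min kidney 3 it was no DEG (2.20). Cyp24a1, the enzyme that inactivates vitamin D, was at 29.2, 14.9 and 13.2 FPKM in the sham kidneys, at 98.7, 192 and 305 FPKM at 28 min and at 56.3, 82.2 and 56.8 FPKM at 30 min, and was lower at 30 than at 28 min (-1.45) and higher than in sham (1.72). Against 28 min it was no DEG without 30 min kidney 3 (-1.38) or 28 min kidney 2 (-1.38) or 3 (-1.09). It was named after its values were seen. The other largest increases were Ctxn3 (1.86), a membrane protein of the kidney and brain, Akap12 (1.81), a scaffold for protein kinase A, and Scg5 (1.77), a chaperone of prohormone convertase. Akap12 was at 34.1, 74.6 and 74.3 FPKM at 30 min and higher than in each 28 min kidney.

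The largest decreases against 28 min were Keg1 (-2.23), a kidney-enriched acyltransferase-like gene, Ldc1 (-1.88), Ces1g (-1.82), a carboxylesterase, and Serpinf2 (-1.82), the inhibitor of plasmin. Ces1g was no DEG without 30 min kidney 3 (-1.37) or 28 min kidney 3 (-1.6). Keg1 was at 1064, 1052 and 897 FPKM in the sham kidneys and at 282, 124 and 64.7 FPKM at 30 min, with kidney 3 the lowest. Of 25 proximal tubule transporters 7 were lower at 30 than at 28 min. They were Cubn, Slc13a3, Lrp2, Slc13a1, Slc17a3, Slc2a2 and Slc5a12, and in 18 of the 25 each 28 min kidney lay above each 30 min kidney. Over all genes tested, 0.649% were lower DEGs and 16.4% had this order of kidneys. Lrp2 was at 50.4, 56.6 and 59.7 FPKM at 28 min against 31.5, 22.3 and 14.1 FPKM at 30 min (-1.32, adjusted p = 0.000764). Without 30 min kidney 3, 4 transporters were lower.

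Other lists that held any DEGs between 30 and 28 min held 1 to 3. Hspa1a was at 18.0, 14.9 and 13.3 FPKM at 28 min and at 47.5, 62.1 and 38.9 FPKM at 30 min (1.69), and with its copy Hspa1b (1.09) made up the 2 heat shock DEGs, of which 1 was left without 30 min kidney 2 or 3 or 28 min kidney 2 or 3. Ccn2, Acta2 and Tagln were the 3 matrix genes higher at 30 min, and without 30 min kidney 3 none was a DEG. Of the 22 injury markers 0 were called in either direction by limma. An unadjusted p below 0.05 was found for 4 of the 22, against 26.8% of all genes tested. The log2 fold changes of the list ran from -0.49 for Havcr1 to 1.63 for Sprr2f. In 9 of the 22 each 30 min kidney lay above each 28 min kidney, which held for 11.9% of all genes tested. Havcr1 was at 1331, 1129 and 1359 FPKM at 28 min, and its range overlapped that of the 30 min kidneys.

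In several metabolic lists and in the mitosis list, most members lay lower at 30 than at 28 min. Each 28 min kidney lay above each 30 min kidney in 17 of 20 mitosis genes, 11 of 14 brush border genes, 14 of 18 cholesterol and fatty acid synthesis genes, 50 of 73 oxidative phosphorylation subunits and 16 of 25 amino acid catabolism genes, against the 16.4% of all genes given above. Few of them were DEGs. In these lists, lower DEGs were Ccna2 (-1.19) and Top2a (-1.17) of mitosis, Gatm (-1.33) and Kynu (-1.15) of amino acid catabolism, the aminopeptidase Anpep (-1.09) and Hmgcs1 (-1.01), an early enzyme of cholesterol synthesis. The oxidative phosphorylation list had 0 by limma, with 10 at an unadjusted p below 0.05 (26.8% of all genes tested). Anpep was at 27.3, 32.6 and 26.6 FPKM at 28 min and at 13.9, 13.4 and 10.7 FPKM at 30 min. Higher DEGs were the neutrophil genes Retnlg (1.08) and Il1r2 (1.0), and Pdk4 (1.23). Retnlg was at 1.38, 0 and 0.70 FPKM at 28 min and at 1.19, 3.06 and 3.68 FPKM at 30 min, with overlapping groups. None of these 9 DEGs passed without 30 min kidney 3. Ccna2, Top2a, Kynu, Anpep and Pdk4 were named after their values were seen. The reverse order was most frequent in the endothelial and the immediate early lists. Each 30 min kidney lay above each 28 min kidney in 8 of 12 and 8 of 17 genes, against 11.9% of all genes tested. The endothelial log2 fold changes ran from 0.15 to 0.76 (median 0.63). Of them 0 were called by limma, with 9 at an unadjusted p below 0.05 (26.8% of all genes tested). The immediate early list (median 0.5) also had 0 DEGs.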

How the data were processed

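RNA of 27 left kidneys (3 mice at each of 9 ischemia times) was sequenced. The authors deposited FPKM values per gene for 19392 genes. Per the labels' processing notes, Bowtie2, RSEM and DESeq2 and build GRCm38.p6 were used, without versions, and the annotation and strand setting are not given in the sources used here. FPKM + 1 was log2-transformed, quantile normalized over 27 kidneys and fitted with limma 3.58.1 (R 4.3.3). Each ischemia time had its own mean, and 18188 genes were tested, those above 0 FPKM in at least 3 kidneys. The p-values rest on the spread among the 3 mice of a group, pooled over the 9 ischemia times, and not on the 2 groups compared alone. A wide spread in 1 group, as in the sham kidneys for interferon response genes, is thus averaged with the others. Relative depth came from 104 genes whose low values were whole multiples of a step (1225 of 1310 values within 0.15 steps). A simulation recovered 98 of 100 genes changed by 2 and 100 of 100 changed by 1.5 on the log2 scale in the comparison of 30 min with sham (19167 genes). Changes were placed only in genes with a sham mean of log2(FPKM + 1) above 3. The noise was Gaussian, with the same spread in every group, and no other gene differed between groups. It checks the code and does not give the sensitivity for lower genes or for groups of uneven spread. Genes named were the 10 largest DEGs in each direction without overlap of the groups (Gm-numbered, Rik and pseudogene symbols replaced by the next gene), up to 4 called and 2 uncalled genes per list, the 4 largest each way against 28 min, and genes the study measured by qPCR. Others are said to be named after their values were seen, and some genes under the rule are not reported here. The members and the 39 gene lists were chosen with earlier results of these data known.

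The alternatives were pseudocounts of 0.1 and 0.01 FPKM, omitting quantile normalization, rescaling FPKM to a constant sum, a filter of 1 FPKM, no filter, a fit of 2 groups, eBayes with trend and robust, a replicate block and leaving out each kidney. The replicate numbers were checked for pairing, and no effect shared by same-numbered kidneys was seen. The labels do not say whether same-numbered mice were handled together.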

Additional observations from a re-analysis of the deposited data

How the results depend on the processing

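Of 175 calls of named genes against sham or 28 min, 122 stayed calls in the same direction under each of the 15 alternatives of their comparison, and 0 reversed. Each of the 34 called against 28 min was lost with 2 groups in the fit. A pseudocount of 0.1 or 0.01 FPKM raised the higher DEGs from 934 to 1613 and 1860, the lower DEGs from 1016 to 1663 and 1962, and the DEGs between 30 and 28 min from 191 to 425 and 493, since low genes then pass the fold threshold. With 2 groups in the limma fit the last count was 0, with 4209 genes at an unadjusted p below 0.05. Leaving out 1 kidney gave 892 to 995 higher and 979 to 1057 lower DEGs, and 83 (30 min kidney 3) to 339 (30 min kidney 1) between 30 and 28 min. No pairing by replicate number was seen: the deviations of same-numbered sham and 30 min kidneys correlated at -0.02, 0.084 and -0.001, and not every kidney correlated best with its own number. With the replicate block the counts were 934, 1016 and 192.

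The genes that reversed were not called in the main setting, and the cause was not tested. Without quantile normalization, and also with FPKM rescaled, the log2 fold changes were 0.81 for Fth1, 0.66 for Ftl1, 0.41 for Gapdh and 0.05 for Pck1. Leaving out 1 kidney gave ranges of -0.6 (30 min kidney 2) to 0.25 (30 min kidney 3) for Pck1, -0.33 (30 min kidney 3) to 0.39 for Aqp2, -0.27 (30 min kidney 3) to 0.32 for Plvap, -0.05 (30 min kidney 1) to 0.77 for Birc5 and -0.04 (sham kidney 2) to 0.4 for Cdc20. Above 1000 FPKM, 39 genes were shifted by a median of -0.26 by quantile normalization.

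The absolute depth is unknown, so that a gene listed at 0 FPKM has no stated detection limit. With 3 mice a group, 1 library decided several counts, given beside them in the text.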

Other observations

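Cholesterol and fatty acid synthesis genes fell in 6 of 18 cases and none rose (median log2 fold change -0.49). Scd1, the desaturase that makes oleate, was at 55.9, 42.9 and 37.6 FPKM in the sham kidneys and at 3.11, 3.38 and 2.97 FPKM at 30 min (-3.54), and Cyp51, the lanosterol demethylase, fell by 2.94. Sqle (-0.87) was not called. In the citric acid cycle 2 of 20 genes fell, against 5.59% of all genes tested. They were the cytosolic malate dehydrogenase Mdh1 (-1.5) and the NADP-dependent Idh2 (-1.25), while the mitochondrial Mdh2 was not called (0.12). Negative log2 fold changes were found for 16 of the 20 and positive ones for 4 (median -0.38). In 15 each 30 min kidney lay below each sham kidney and in 1 each lay above, against 21.2% and 33.3% of all genes tested. Of 13 clock genes, Per1, a repressor of the loop that also responds to stress, went from 3.85, 9.11 and 7.86 FPKM to 15.7, 25.3 and 41.9 FPKM (1.74), and Arntl (BMAL1), the activator, from 8.38, 5.41 and 5.78 FPKM to 2.05, 2.19 and 2.21 FPKM (-1.33). Nr1d1 fell by 1.11 and was no DEG without sham kidney 1 (-0.99) or 30 min kidney 1 (-0.93). In the clock list 1 gene rose and 2 fell, against 5.14% and 5.59% of all genes tested. The count that rose was 3 with a pseudocount of 0.1 or 0.01 FPKM or without sham kidney 3. It was also 3 without quantile normalization and with FPKM rescaled to a constant sum. Without 30 min kidney 1 or 2 or sham kidney 2 it was 2. Of the 8 CCT chaperonin subunits 0 were called by limma, and all 8 had positive log2 fold changes. An unadjusted limma p below 0.05 was found for 7 of them, against 56.7% of all genes tested.

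Gene families grouped by symbol, a grouping made with earlier results known, gave counts of the same kind. Of 23 Slc22 organic ion transporters 15 fell and none rose (median -1.64), and all 4 Acsm genes fell. Over all genes tested, 5.14% rose and 5.59% fell. Of 12 S100a calcium-binding genes 9 rose (median 1.38), and of 12 annexins 6 rose and 1 fell (median 1.01). Of 25 tubulins 9 rose (median 0.37). The medians were near 0 in the keratins (0.14), of which 9 of 39 rose, and in the collagens (0), of which 10 of 50 rose. Of 32 H2- histocompatibility genes 15 fell and of 10 guanylate-binding Gbp genes 8 fell. Near-identical members of these families may share reads. Of the higher DEGs 10 were listed at 0 in all 3 sham kidneys, and of the lower DEGs 3 (the chemokine Ccl19, Gbp10 and Sycn) were listed at 0 in all 3 kidneys of the 30 min group. Gbp10 was at 3.60, 78.7 and 43.0 FPKM in the sham kidneys.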
